A study of Mus musculus with 20 samples.

Results

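The 32 genes described here are p53 itself (Trp53), 3 of its inhibitors and 28 established targets of p53, followed in mouse tissue and cells that lack the zinc finger protein ZMYM2. They were found by gene symbol in the raw count tables, where all 32 were present at each stage, out of 25199 genes in the whole series. They were sorted into broad role groups. Of the 32, 4 are p53 and its inhibitors (Trp53, Mdm2, Mdm4, Ppm1d), 7 were placed under cell cycle arrest (Cdkn1a, Ccng1, Btg2, Plk2, Plk3, Gtse1, Gadd45a) and 12 under apoptosis (Bbc3, Bax, Pmaip1, Perp, Aen, Fas, Tnfrsf10b, Eda2r, Apaf1, Ei24, Phlda3, Trp53inp1). A place in the arrest group does not mean that a gene, such as Gtse1, itself halts the cell cycle. A further 4 act in DNA repair (Rrm2b, Ddb2, Xpc, Polk) and 5 in redox and stress responses (Sesn1, Sesn2, Fdxr, Gdf15, Zmat3).

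RNA-seq was available for 20 libraries. Whole C57BL/6 embryos at E8.5 were homozygous for a CRISPR frameshift allele in the first coding exon of Zmym2 (Zmym2-/-, 6 embryos) or wild type (Zmym2+/+, 6 embryos), with 3 males and 3 females per genotype and 1 embryo per library. The cell lines were clones of V6.5, a C57BL/6x129/SvJae embryonic stem cell line, nucleofected with Cas9 and either the guide used for the mouse allele (KO) or a non-targeting guide (NT). Each line genotype had 2 libraries as mESCs in serum and LIF (day 0) and 2 as embryoid bodies (EBs, differentiating aggregates, day 3). The lines were grown from single colonies, but the sources do not say whether the 2 libraries of a group came from separate clones or whether an EB and an mESC library with the same number share 1. P-values between line genotypes therefore measure the spread between these libraries, which may be technical.

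p53 is a transcription factor that is kept scarce in unstressed cells by MDM2, a ubiquitin ligase whose gene p53 itself activates, and by the MDM2 relative MDM4. DNA damage and other stresses release it from these inhibitors, after which it binds paired decamer half-sites near its targets and raises their transcription. Because p53 is controlled largely at the protein level, its activity is commonly read from the transcripts of its targets rather than from its own. In early mouse embryos and stem cells p53 is abundant at the mRNA level and is known for removing damaged cells.

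Promoter sequences are shown for the 4 genes that were higher in KO than NT EBs and whose RefSeq start-site window holds a p53 half-site, since these are the genes where the measured change and the motif meet. Each window runs from 250 bases before to 50 bases after an annotated start (RefSeq, GRCm38.p6), written 5′ to 3′ on the gene's strand with the half-site decamer in capitals. Cdkn1a lies at chr17:29090729-29091028 (plus strand), Ccng1 at chr11:40755237-40755536 (minus strand), Gtse1 at chr15:85859696-85859995 (plus strand) and Aen at chr7:78895677-78895976 (plus strand).
Cdkn1a: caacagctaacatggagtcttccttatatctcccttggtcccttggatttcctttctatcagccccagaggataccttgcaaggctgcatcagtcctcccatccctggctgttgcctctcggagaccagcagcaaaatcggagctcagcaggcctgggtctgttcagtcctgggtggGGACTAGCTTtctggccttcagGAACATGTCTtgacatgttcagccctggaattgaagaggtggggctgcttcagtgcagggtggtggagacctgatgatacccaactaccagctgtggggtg
Ccng1: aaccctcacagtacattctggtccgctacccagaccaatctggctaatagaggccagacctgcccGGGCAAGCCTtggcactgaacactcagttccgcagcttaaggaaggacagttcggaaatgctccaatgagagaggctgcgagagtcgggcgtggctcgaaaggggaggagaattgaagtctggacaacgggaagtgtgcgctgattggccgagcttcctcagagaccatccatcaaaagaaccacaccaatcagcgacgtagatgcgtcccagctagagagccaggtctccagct
Gtse1: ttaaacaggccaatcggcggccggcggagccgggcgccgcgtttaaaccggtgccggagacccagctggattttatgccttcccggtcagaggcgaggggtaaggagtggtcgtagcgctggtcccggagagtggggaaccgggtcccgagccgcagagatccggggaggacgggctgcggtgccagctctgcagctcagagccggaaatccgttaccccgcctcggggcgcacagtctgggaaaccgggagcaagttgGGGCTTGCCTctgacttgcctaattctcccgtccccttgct
Aen: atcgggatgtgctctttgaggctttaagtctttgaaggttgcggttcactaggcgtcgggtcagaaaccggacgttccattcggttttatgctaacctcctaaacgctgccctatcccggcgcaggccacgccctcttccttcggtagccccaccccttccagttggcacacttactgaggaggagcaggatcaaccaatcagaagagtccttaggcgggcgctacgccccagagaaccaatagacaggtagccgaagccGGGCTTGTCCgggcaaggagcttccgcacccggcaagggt

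Counted from the annotated start, the 2 half-sites of Cdkn1a begin at -73 and -51, with 12 bases between them. The single exact half-site begins at -185 in Ccng1, at 9 in Gtse1 and at 10 in Aen. The other annotated windows of Cdkn1a and Gtse1 held no half-site, and that of Aen held the same decamer at -121. The motif searched is the p53 half-site decamer with no mismatch, which reads the same on both strands. In Cdkn1a the bases right after GAACATGTCT, tgacatgttc, differ from the motif only at the first base and were not counted. Bases right before the marked decamer differ from the motif at 1 base in Ccng1 (agacctgccc) and in Gtse1 (gagcaagttg). These were not counted either, so a single exact half-site does not mean that no near-match adjoins it. The exact motif was found in 2745 of all 32851 windows (8.36%), and in at least 1 window of 2582 of 27025 gene symbols (9.55%). Of the 32 genes, 24 had a window and 12 of these (50%) held the motif: Trp53, Mdm2, Ppm1d, Cdkn1a, Ccng1, Gtse1, Gadd45a, Bax, Aen, Ei24, Polk and Sesn1. The genes were listed as p53 targets, so this share is a description of the list. Of the 8 genes higher in KO EBs, 7 had a window and 4 of them (57.1%) held the motif, beside 8 of the 17 other genes with a window (47.1%). No window was at hand for Pmaip1, Perp, Tnfrsf10b, Trp53inp1, Rrm2b, Ddb2, Xpc and Zmat3.

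Libraries held between 32016880 and 64057608 counts in genes, so a level of 1 CPM, the TMM-scaled share of a library's counts used below, stood for at least 32 counts. The Zmym2 transcript was lower in all KO lines, at 29.4 and 27.6 CPM in KO mESCs against 68.1 and 72.0 in NT mESCs, and at 31.9 and 30.3 CPM in KO EBs against 91.2 and 91.7 in NT EBs (edgeR adjusted p = 3.07e-06 and 9.7e-08). In embryos it overlapped, at 25.4 to 67.1 CPM in Zmym2-/- against 50.3 to 125 in Zmym2+/+ with an adjusted p of 0.226 (a frameshift allele need not remove the mRNA), so there it is a weak check of the labels. Pluripotency markers identified the mESCs (2773 to 2976 summed CPM over 6 genes in KO, 3501 to 3699 in NT) and were lower in EBs (1515 to 1550 in KO, 1569 to 1643 in NT). Zmym2-/- embryos 5 and 6 stood apart from the other embryos, with summed pluripotency markers of 203 and 445 CPM where the other 10 embryos had 20.2 to 98.4. Heart markers summed to 18.6 to 496 CPM in Zmym2-/- and 181 to 443 CPM in Zmym2+/+ embryos. Litters were inferred from the number in the embryo names. By that number the 3 Zmym2-/- males shared a single litter, which gave no Zmym2+/+ embryo. Of 6 litters inferred in this way, 3 held both genotypes (3 Zmym2-/- and 4 Zmym2+/+ embryos). Names began with H for 2 Zmym2-/- and 4 Zmym2+/+ embryos, and with J for 4 and 2.

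Expressed per transcript length, as RPKM, the genes covered a wide range of levels. Bax, the pore-forming effector of mitochondrial apoptosis, had the highest RPKM of the 32 in every group, averaging 130.0 ± 11.2 in Zmym2-/- embryos and 133 ± 16.9 in Zmym2+/+ embryos (SD, n = 6 each). It averaged 195 RPKM in KO mESCs, 159 in NT mESCs, 198 in KO EBs and 191 in NT EBs. Trp53 was second in 5 of the 6 groups, at 52.3 RPKM in Zmym2-/- and 38.5 in Zmym2+/+ embryos, and in KO EBs it lay behind Bax, Gtse1 and Phlda3. At the other end, the death receptor gene Fas stayed at or below 0.316 mean RPKM in all groups, with as few as 2 counts in a library. Fas was called in no main comparison. With each line fitted as a block, edgeR called Fas higher in KO EBs than KO mESCs (log2 fold change 1.71, adjusted p = 0.0201). Without KO mESC 2 the log2 fold change was 3.29, which rests on the 1 KO mESC library left. Gdf15, which encodes a secreted stress cytokine, was also low in embryos, at 0.322 RPKM in Zmym2-/- and 0.136 in Zmym2+/+. Cdkn1a, Plk3, Gadd45a, Ddb2, Polk, Ei24, Rrm2b, Sesn2 and others of the 32 overlap another annotated gene, and the strand setting of the counting is not given in the sources used here, so reads from such partners cannot be told apart.

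In E8.5 embryos the question was whether loss of ZMYM2 is accompanied by higher p53 target transcripts. Only Trp53inp1, whose nuclear protein cooperates with p53 in apoptosis and which also acts in autophagy, passed the test across all genes. No p53 inhibitor, arrest, repair or stress gene did so, but the point estimates leaned upward. Positive fold changes were found for 21 of 32, beside 52.3% of all 22729 genes tested. The median log2 fold change was 0.19, beside 0.02 over all genes.

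Trp53inp1 was measured at 27.5, 23.5, 24.8, 29.3, 28.6 and 28.6 CPM in Zmym2-/- embryos 1 to 6, against 13.4, 14.4, 12.9, 14.9, 11.7 and 12.1 CPM in Zmym2+/+ embryos 1 to 6. Every knockout embryo lay above every wild type embryo, and the spread within a genotype was among the narrowest of the 32 genes (coefficient of variation 8.63% in Zmym2-/- and 9.72% in Zmym2+/+). The log2 fold change was 1.03 (SE 0.12, edgeR adjusted p = 0.000733), and leaving out any 1 embryo moved it only between 1.00 and 1.07, with adjusted p from 0.00126 to 0.00332. In 4 fits on fewer embryos (females, either name series, shared litters) it lay between 1.06 and 1.15 and was not called (adjusted p from 0.103 to 0.529). Across all genes, 0.510% were called higher and 0.0132% lower in Zmym2-/- embryos, and 1.03% lay above and 0.145% below with no overlap. Among the 32 genes the counts were 1 called higher, 0 called lower, 1 above and 0 below without overlap. At an unadjusted edgeR p under 0.05 there were 5 higher and 0 lower, where 5.67% and 6.38% of all genes passed. DESeq2 called 3 higher (Trp53inp1, Cdkn1a, Eda2r) and 0 lower of the 32, and 335 higher and 37 lower of 22707 genes (1.64%).

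**Figure D1:**
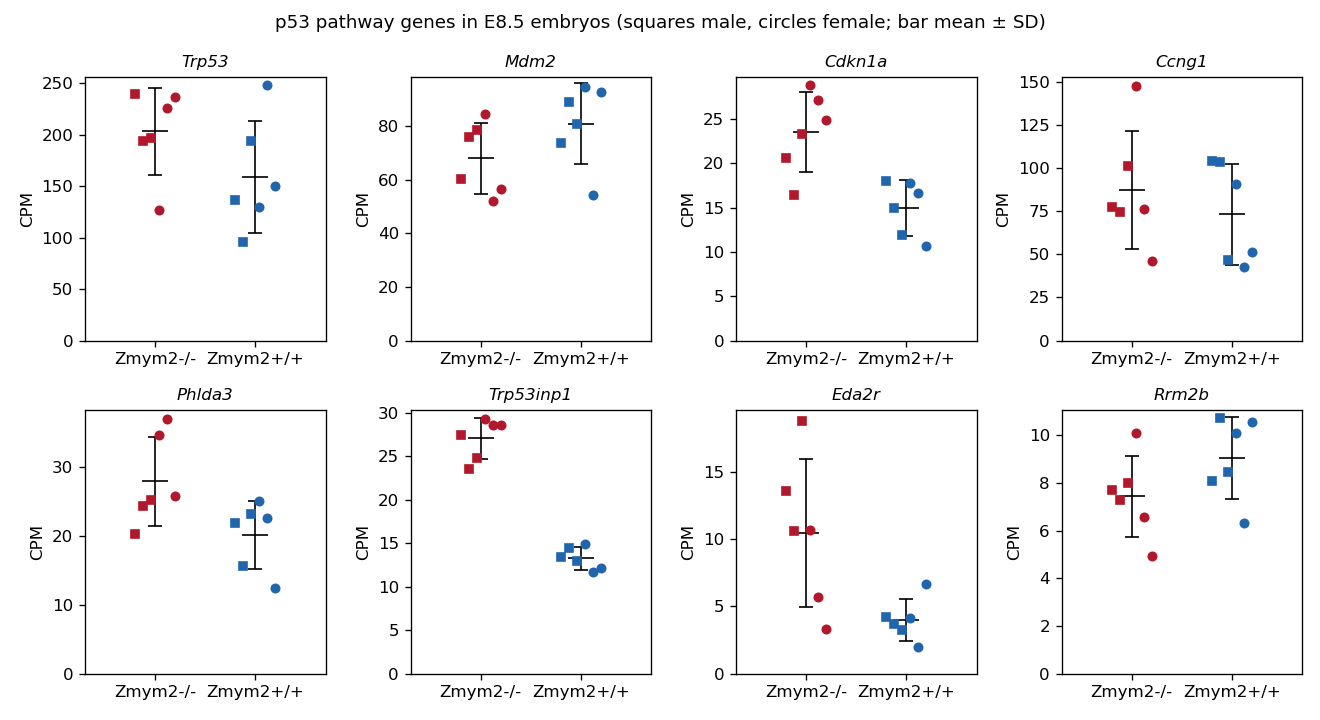
CPM of 8 genes in each E8.5 embryo, Zmym2-/- (red) left of Zmym2+/+ (blue), with males as squares, females as circles and bars for the mean ± SD of 6. Trp53inp1 separates the genotypes without overlap (23.5 to 29.3 against 11.7 to 14.9 CPM), whereas Cdkn1a, Phlda3 and Eda2r overlap and Trp53, Mdm2, Ccng1 and Rrm2b intermix.

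Cdkn1a encodes p21, the cyclin-dependent kinase inhibitor through which p53 arrests the cell cycle. Its values were 20.6, 16.5, 23.4, 28.8, 27.1 and 24.9 CPM in Zmym2-/- embryos, against 18.01, 14.9, 11.9, 17.8, 16.7 and 10.6 CPM in Zmym2+/+ embryos. A single knockout embryo, number 2, fell within the wild type range, and the log2 fold change of 0.65 (SE 0.18) had an edgeR adjusted p of 0.226. With the first letter of the embryo names (H or J) as a covariate it was 0.83 (adjusted p = 0.0191), and DESeq2 gave 0.66 (adjusted p = 0.0278), so the call depended on the model. Over the 12 embryos Cdkn1a had a Spearman rho of 0.587 with the summed pluripotency markers, whose part in the difference was not tested.

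Eda2r, an X-linked receptor of the TNF receptor family, had 13.6, 10.6, 18.8, 10.7, 5.70 and 3.32 CPM in Zmym2-/- embryos, against 4.21, 3.66, 3.25, 4.16, 2.01 and 6.70 CPM in Zmym2+/+ embryos. The first 4 knockout embryos exceeded all wild types, while embryos 5 and 6, the ones that stood apart, lay within the wild type range. Its log2 fold change was 1.38 (SE 0.38, adjusted p = 0.23), and 1.74 (adjusted p = 0.0336) without those 2 embryos.

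Phlda3, an inhibitor of Akt signalling, ranged over 20.3 to 37.1 CPM (median 25.6) in Zmym2-/- and 12.4 to 25.1 CPM (median 22.2) in Zmym2+/+ embryos, a log2 fold change of 0.47 (SE 0.20, adjusted p = 0.388). Gdf15 had a log2 fold change of 1.12 (SE 0.44, adjusted p = 0.374) but never exceeded 1.22 CPM. The remaining apoptosis genes did not separate. Pmaip1 (Noxa) had a log2 fold change of 0.69 (SE 0.36) and Bbc3 (Puma) of 0.21 (SE 0.20), both BH3-only activators of BAX, and Bax itself of -0.14 (SE 0.13).

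Trp53 mRNA ranged from 127 to 239.7 CPM in Zmym2-/- embryos and from 95.4 to 248 CPM in Zmym2+/+ embryos (log2 fold change 0.36, SE 0.22, adjusted p = 0.53). Mdm2, itself a p53 target, was at 52.0 to 84.3 CPM in Zmym2-/- and 54.3 to 94.5 CPM in Zmym2+/+ (log2 fold change -0.25, SE 0.16, adjusted p = 0.553). Neither Mdm4 (0.20, SE 0.16) nor the p53 phosphatase gene Ppm1d (-0.06, SE 0.13) passed the test, and all 4 repair genes overlapped between genotypes, with log2 fold changes from -0.28 (Rrm2b) to 0.29 (Polk). By role, the median was 0.07 for p53 and its inhibitors, 0.16 for arrest, 0.19 for apoptosis, 0.22 for repair and 0.31 for redox and stress genes.

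Several of the genes followed marker genes of particular cell types from embryo to embryo, and the bulk libraries cannot tell fewer cells of a type from less RNA per cell. Over the 12 embryos, Plk3 (Spearman rho 0.965), Fdxr (0.902), Perp (0.839) and Bax (0.825) followed the summed CPM of 5 trophoblast markers, which ranged from 153 to 754 in Zmym2-/- and from 139 to 1355 in Zmym2+/+ embryos. Of these markers Hand1 reached the highest values (94.4 to 566 CPM in Zmym2-/-, 55.0 to 941 in Zmym2+/+). Prl3d1 had 0.846 to 94.2 CPM in Zmym2-/- and 0.651 to 330 in Zmym2+/+, and Gcm1 at most 1.20. Whether the sum measured trophoblast content was not tested. Plk3, a stress-responsive kinase, had 2.42 to 22.3 CPM in Zmym2-/- and 1.86 to 31.4 CPM in Zmym2+/+ embryos, and correlated with Fdxr, a mitochondrial ferredoxin reductase, at Pearson r = 0.965 after centring on genotype. With the sum of 4 primed epiblast markers, rho was 0.853 for Pmaip1, -0.86 for Mdm2 and -0.874 for Rrm2b, the sum being 153 to 529 CPM in Zmym2-/- and 128 to 303 CPM in Zmym2+/+. These correlations are descriptions over 12 embryos, whose names fall in an H and a J series, unevenly split between the genotypes. Phlda3 had a rho of 0.727 with 6 motile cilia genes, whose sum reached 114 CPM in Zmym2-/- embryo 6 where Zmym2+/+ embryos had 5.05 to 9.21. The part of cell composition in the genotype differences was not tested. Trp53inp1 followed no marker sum this closely, its highest being 0.531 with the same cilia genes.

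The 32 genes did not move as a block among embryos of 1 genotype. Of 496 gene pairs, 261 had a positive correlation after centring on genotype, with a median r of 0.03. Among the 28 pairs of the 8 genes called higher in KO EBs, 14 were positive with a median r of 0.01. The median coefficient of variation over the 32 genes was 21.3% in Zmym2-/- and 22.9% in Zmym2+/+ embryos. It was 6.88% in Zmym2-/- and 7.94% in Zmym2+/+ for Aen, an exonuclease gene, and highest for Plk3 in both genotypes (96% and 96.3%).

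Whether the genotype difference itself differed between the sexes was tested as an interaction. edgeR called 0 of 22729 genes. Among the 32, the unadjusted p was under 0.05 for 3 with a more positive difference in males (Plk2, Bbc3, Zmat3) and 5 with a more negative one (Plk3, Perp, Gdf15, Fdxr, Bax), 8 of 32 in all, where 22.3% of all genes passed. DESeq2 called 1 and 4 of the 32 in those directions, and 1252 and 1332 of all genes (11.4%). Plk3 had the largest estimate of the 32, at -3.93 on the log2 scale (SE 1.00, adjusted p = 0.0696), and without wild type embryo 3 it passed in edgeR (-4.38, adjusted p = 0.0227), as it did without wild type embryo 4 (-4.49, adjusted p = 0.0481). Fdxr passed without wild type embryo 3 (-2.58, adjusted p = 0.0351) and Perp without wild type embryo 4 (-1.50, adjusted p = 0.0481). Since the knockout males shared a single litter as inferred from their names, sex and litter cannot be told apart in this contrast.

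In EBs a set of arrest and apoptosis targets was higher in KO than in NT lines, while p53, its inhibitors and the repair genes were not called. The 8 genes called higher were Cdkn1a, Ccng1, Plk2 and Gtse1 of the arrest group and Aen, Eda2r, Phlda3 and Trp53inp1 of the apoptosis group, with 1.17-fold to 2.05-fold differences. The 2 called lower were Gadd45a, a growth arrest and DNA damage gene, and Sesn1, a sestrin that restrains mTORC1. Across all 20142 genes 4.62% were called higher and 2.77% lower, whereas 8 and 2 of the 32 were. At an unadjusted p under 0.05 the 32 had 14 higher and 3 lower, and all genes 11.7% and 8.94%. All 12 apoptosis genes had a positive estimate, as did 26 of the 32 and 51.1% of all genes. The median log2 fold change was 0.18, beside 0.01 over all genes. The 3 heart markers measured in lines summed to 23.7 to 27.5 CPM in KO and 12.9 to 14.2 CPM in NT EBs, mostly Myh6 (19.5 to 23.0 and 10.7 to 11.6). Primed epiblast markers summed to 2831 to 3019 CPM in KO and 3093 to 3259 CPM in NT EBs, mostly Dnmt3b (2296 to 2430 and 2550 to 2642). Of these 4 markers, 3 had a negative and 1 a positive estimate, the latter being Fgf5 (173 to 184 CPM in KO, 158 to 165 in NT). The part of these markers in the differences was not tested.

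Phlda3 stood at 137 and 127 CPM in KO EBs, against 92.0 and 83.1 CPM in NT EBs. This was the smallest adjusted p of the 32 (log2 fold change 0.60, SE 0.07, adjusted p = 0.000197). Both knockout libraries lay well above both controls.

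Trp53inp1 had 102 and 85.1 CPM in KO EBs, against 58.5 and 61.6 CPM in NT EBs (log2 fold change 0.64, SE 0.08, adjusted p = 0.000495). It was the one gene of the 32 called in both embryos and EBs, in the same direction. Ccng1, which encodes cyclin G1, had 234 and 231 CPM in KO EBs, against 184 and 174 CPM in NT EBs (log2 fold change 0.38, SE 0.05, adjusted p = 0.000875). Its promoter window carries the single exact half-site printed above.

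Eda2r had 28.1 and 22.1 CPM in KO EBs, against 14.4 and 10.2 CPM in NT EBs (log2 fold change 1.03, SE 0.15, adjusted p = 0.00158), the largest fold of the called genes. Cdkn1a had 80.5 and 68.5 CPM in KO EBs, against 53.2 and 39.4 CPM in NT EBs (log2 fold change 0.69, SE 0.12, adjusted p = 0.00385), a call that DESeq2 did not make. Aen had 178 and 174 CPM in KO EBs, against 139 and 143 CPM in NT EBs (log2 fold change 0.32, SE 0.05, adjusted p = 0.00274). For these genes too the 2 knockout libraries lay above the 2 controls, a pattern shown by 18 of the 32 genes and by 26.1% of all genes, with 4 and 25.4% on the side below.

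Plk2, a polo-like kinase gene, had 71.6 and 53.2 CPM in KO EBs, against 46.8 and 43.0 CPM in NT EBs (log2 fold change 0.48, SE 0.11, adjusted p = 0.0216). Gtse1, whose product binds p53 and microtubules, had 261 and 241 CPM in KO EBs, against 219 and 210.2 CPM in NT EBs (log2 fold change 0.23, SE 0.05, adjusted p = 0.0231). The knockout libraries were the higher ones in both cases, by a margin that for Gtse1 was about the spread within the KO group.

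Gadd45a went the other way, with 27.5 and 25.1 CPM in KO EBs against 35.9 and 40.3 CPM in NT EBs (log2 fold change -0.53, SE 0.09, adjusted p = 0.00299). Sesn1 had 15.1 and 15.1 CPM in KO EBs, against 18.8 and 21.7 CPM in NT EBs (log2 fold change -0.42, SE 0.10, adjusted p = 0.0278). Its paralog Sesn2 had an estimate of opposite sign, 0.24 (SE 0.08, adjusted p = 0.095).

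The canonical feedback gene Mdm2 was not called in EBs, at 117 and 100.2 CPM in KO against 110.2 and 104 CPM in NT (log2 fold change 0.02, SE 0.07, adjusted p = 0.915). Trp53 was at 339 and 316 CPM in KO EBs against 336 and 338 CPM in NT EBs (log2 fold change -0.04, SE 0.05, adjusted p = 0.757). Mdm4 (0.09, SE 0.08) and Ppm1d (0.01, SE 0.07) also missed the test. For the 4 genes of p53 and its inhibitors and the 4 repair genes edgeR called 0, DESeq2 called 0 and 0 had an unadjusted p under 0.05 in either tool. Among the death effectors, Bbc3 (0.00, SE 0.12) and Bax (0.03, SE 0.05) were close to 0, and Pmaip1 was at 0.22 (SE 0.07, adjusted p = 0.0705).

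Of the 10 EB calls, 7 held with each library left out in turn. Gtse1, Plk2 and Sesn1 lost the call without KO EB 1 (adjusted p = 0.125, 0.114 and 0.0682), and Gtse1 and Sesn1 also without NT EB 2 (adjusted p = 0.0938 and 0.206). Fitting all 8 line libraries together left 5 higher and 1 lower, where 5.05% of all genes were called. Eda2r (adjusted p = 0.052), Sesn1 (0.127), Gtse1 (0.164) and Plk2 (0.0789) were no longer called. DESeq2 gave 6 higher and 2 lower, where it called 6.23% of all genes, without Cdkn1a (adjusted p = 0.0636) and Plk2 (0.23).

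**Figure D2:**
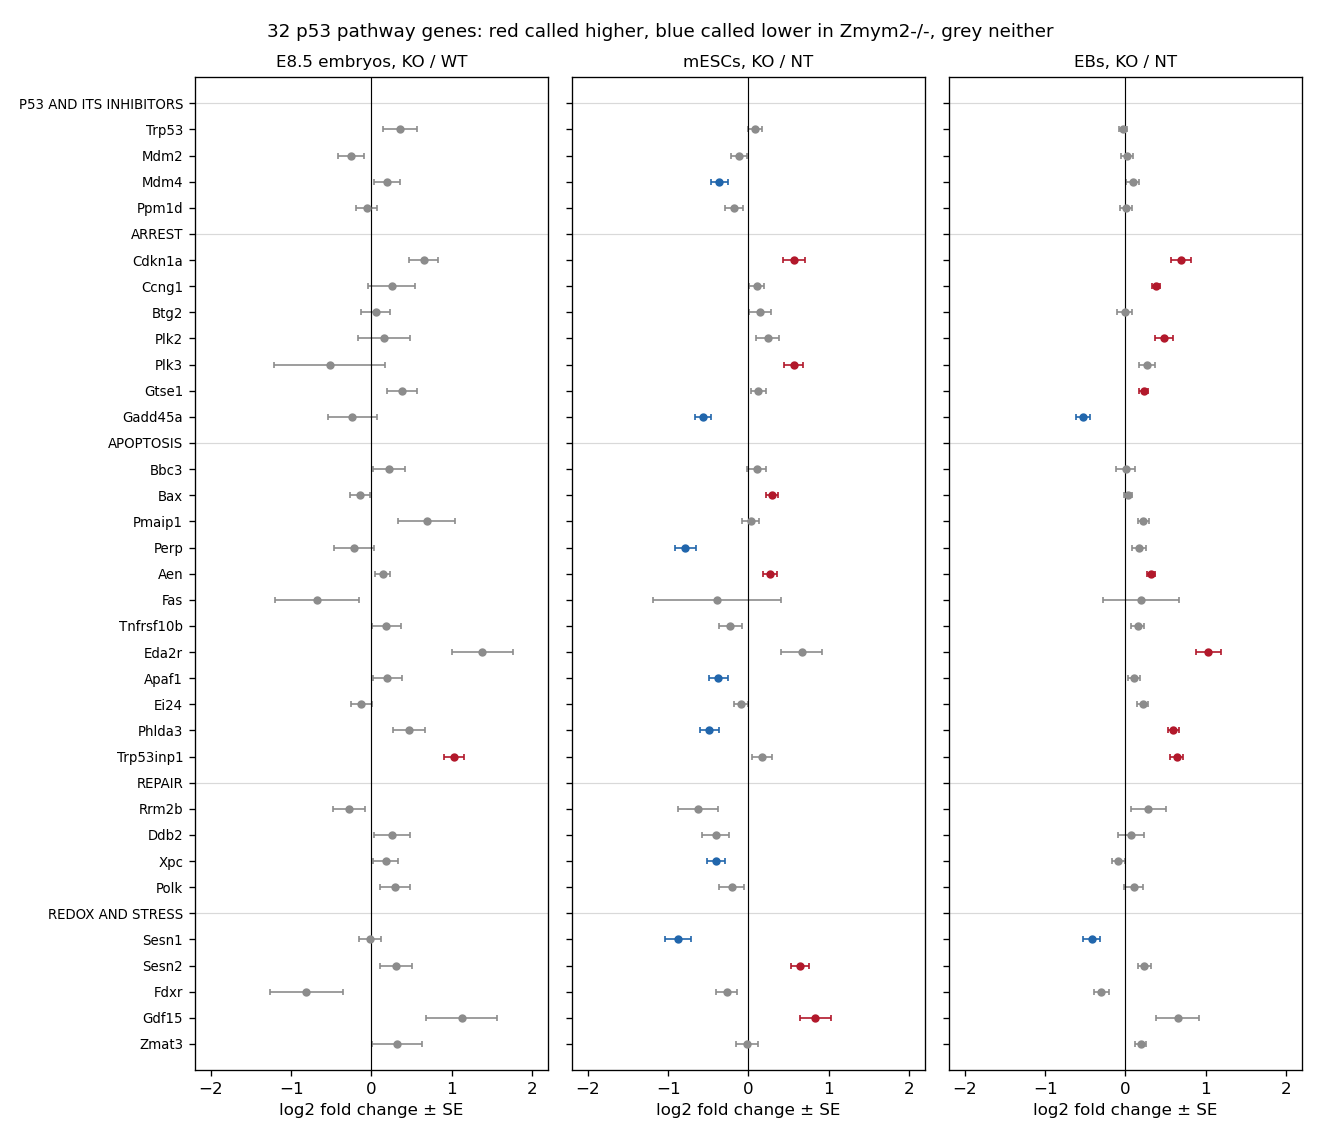
Log2 fold change ± SE of each of the 32 genes, Zmym2-/- over control, in E8.5 embryos (6 against 6), mESCs (2 against 2) and EBs (2 against 2), grouped by role, with genes called higher in red, lower in blue and uncalled in grey. In EBs 8 arrest and apoptosis genes are red and the estimates of all 12 apoptosis genes are positive, whereas mESCs have 6 red and 7 blue genes.

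**Figure D3:**
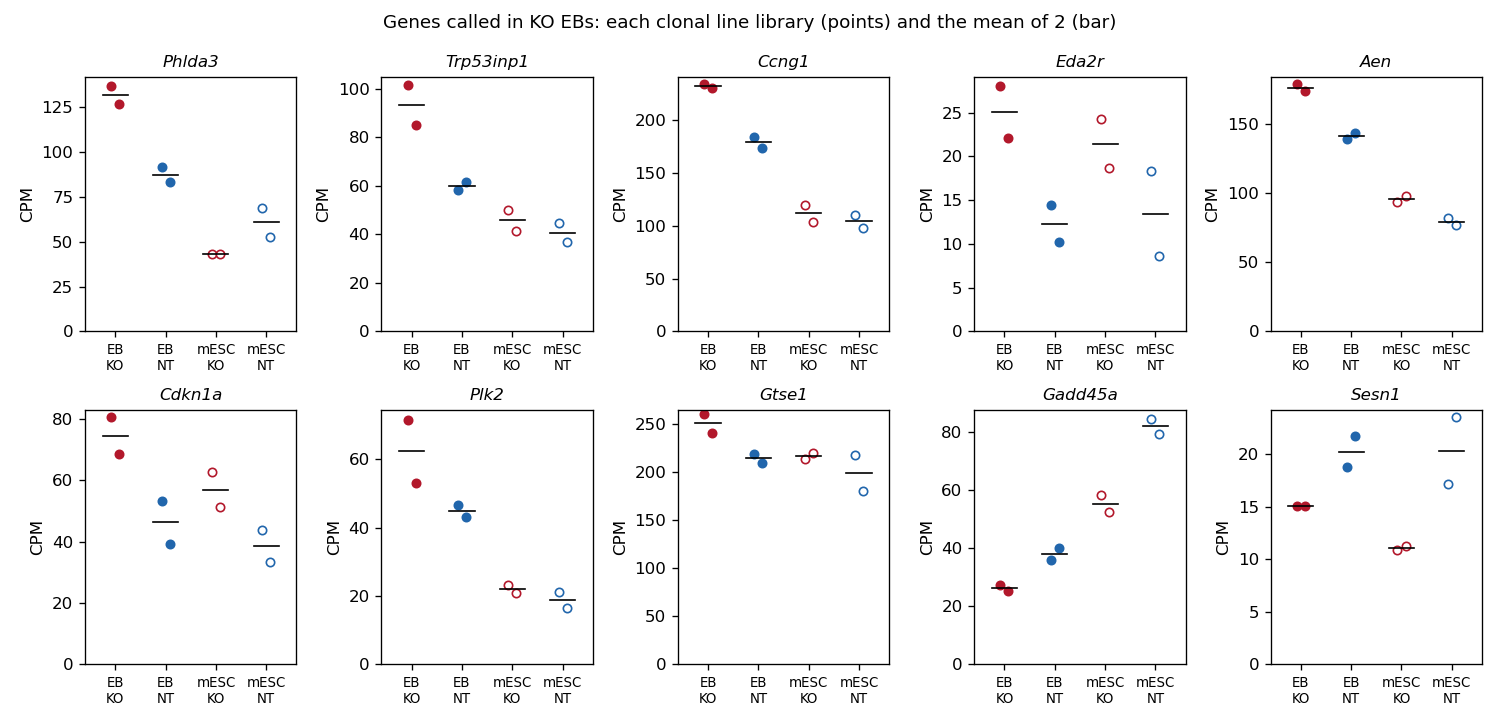
CPM in each clonal line library (points) and the mean of 2 (bar) for the 10 genes called in KO EBs, in the order KO EB, NT EB, KO mESC, NT mESC, with EBs filled and mESCs open. Phlda3 is higher in KO than NT EBs (137 and 127 against 92.0 and 83.1 CPM) but lower in KO than NT mESCs (43.4 and 43.4 against 68.8 and 52.9 CPM).

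In mESCs, before differentiation, the 32 genes split in both directions. Of the 32, 6 were called higher in KO than NT lines (Cdkn1a, Plk3, Aen, Bax, Sesn2, Gdf15) and 7 lower (Mdm4, Gadd45a, Apaf1, Perp, Phlda3, Xpc, Sesn1), with a median log2 fold change of -0.06, beside 0.01 over all genes. Across all genes 10.3% of 20159 were called higher and 8.94% lower. Marker levels differed as well: the summed primed epiblast markers were 646 to 893 CPM in KO and 195 to 271 CPM in NT mESCs, all 4 called higher, and their part in the values below was not tested.

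Cdkn1a had 62.7 and 51.2 CPM in KO mESCs, against 43.7 and 33.3 CPM in NT mESCs (log2 fold change 0.57, SE 0.14, adjusted p = 0.0113). Sesn2, a sestrin induced by p53 and by amino acid stress, had 213 and 202 CPM in KO mESCs, against 153 and 113 CPM in NT mESCs (log2 fold change 0.64, SE 0.11, adjusted p = 0.00169). Plk3 had 47.2 and 41.0 CPM in KO mESCs, against 31.8 and 27.7 CPM in NT mESCs (log2 fold change 0.57, SE 0.12, adjusted p = 0.00464). In each case the knockout libraries were both above the controls.

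Gdf15 had 9.54 and 14.0 CPM in KO mESCs, against 6.93 and 6.28 CPM in NT mESCs (log2 fold change 0.83, SE 0.20, adjusted p = 0.00925). Bax had 317 and 309 CPM in KO mESCs, against 258 and 252 CPM in NT mESCs (log2 fold change 0.30, SE 0.07, adjusted p = 0.0131). Aen was called with the smallest fold of the 6 (0.27, SE 0.09, adjusted p = 0.0446).

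Among the genes lower in KO mESCs, Perp, a membrane protein of desmosomes and a p53 apoptosis effector, had 21.03 and 19.5 CPM in KO against 31.7 and 38.3 CPM in NT (log2 fold change -0.79, SE 0.13, adjusted p = 9e-04). Sesn1 had 10.9 and 11.2 CPM in KO mESCs, against 17.1 and 23.6 CPM in NT mESCs (log2 fold change -0.88, SE 0.16, adjusted p = 0.00225). Gadd45a had 58.2 and 52.5 CPM in KO mESCs, against 84.6 and 79.4 CPM in NT mESCs (log2 fold change -0.57, SE 0.10, adjusted p = 0.0011). Sesn1 and Gadd45a were thus lower in KO lines at both stages.

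Phlda3 had 43.4 and 43.4 CPM in KO mESCs, against 68.8 and 52.9 CPM in NT mESCs (log2 fold change -0.49, SE 0.12, adjusted p = 0.013). The damage sensor of nucleotide excision repair Xpc (-0.40, SE 0.11, adjusted p = 0.0204), Mdm4 (-0.36, SE 0.11, adjusted p = 0.0348) and the apoptosome scaffold Apaf1 (-0.37, SE 0.11, adjusted p = 0.0351) were the other 3 called lower. All 4 repair genes had negative estimates and lay below the controls without overlap, although Xpc alone was called. With 2 libraries against 2, 30.3% of all genes lay above and 30.3% below without overlap, beside 7 and 13 of the 32.

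Only Gadd45a, Perp, Plk3, Sesn1 and Sesn2 kept the mESC call with each library left out in turn. Without NT mESC 2 the calls of Cdkn1a, Bax, Apaf1, Xpc and Aen were lost. Without NT mESC 1 those of Aen, Phlda3, Apaf1 and Mdm4 were lost. Without KO mESC 1 those of Cdkn1a, Xpc and Apaf1 were lost, and without KO mESC 2 those of Gdf15, Aen and Mdm4.

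Set side by side, the embryo and EB values pointed the same way for each gene called in EBs. All 10 had the same sign in embryos, although 1 was called there, and of all 1336 genes called in EBs and tested in embryos 67.7% had the same sign. Of the 13 called in mESCs, 7 had the same sign in embryos (53.8%, all genes 53.6%) and 9 in EBs (69.2%, all genes 79%). Over the 32 genes the log2 fold changes in EBs and embryos had a Pearson r of 0.669 (Spearman rho 0.485), those in mESCs and embryos 0.494 (0.415), and those in mESCs and EBs 0.595 (0.522). These are correlations across genes, which are not independent replicates, and mESC and EB libraries may come from the same clones. Of the genes called in EBs, Eda2r had 1.38 in embryos and 1.03 in EBs, Trp53inp1 1.03 and 0.64, and Cdkn1a 0.65 and 0.69, with Cdkn1a also higher in KO mESCs (0.57). Gdf15, called in neither, had 1.12 in embryos and 0.65 in EBs.

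**Figure D4:**
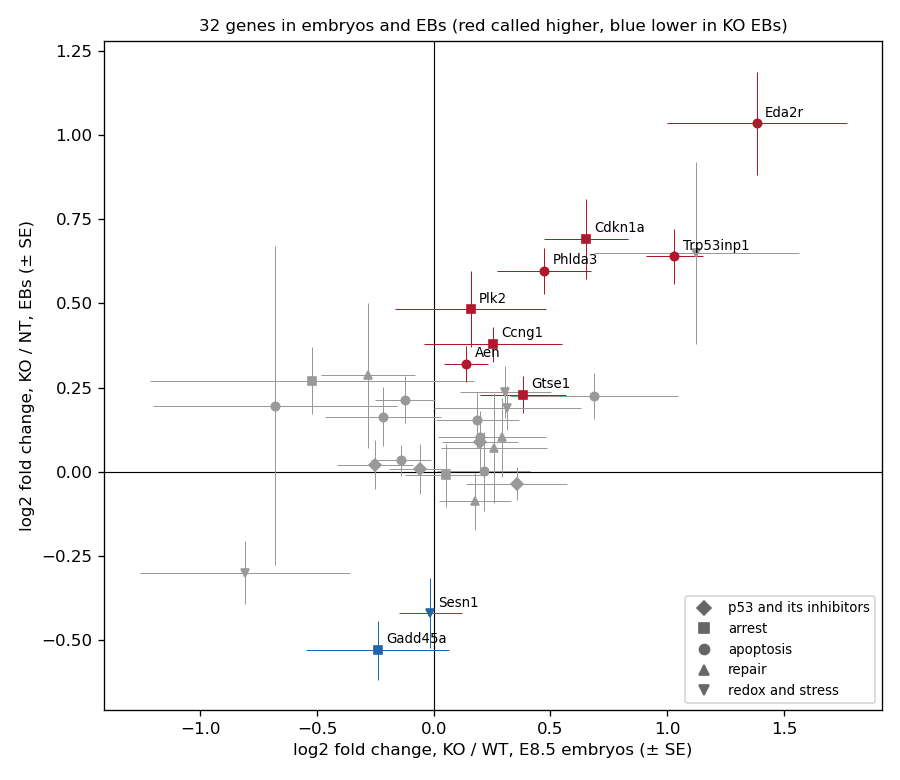
Log2 fold change ± SE of the 32 genes in EBs (KO over NT, vertical axis) against E8.5 embryos (Zmym2-/- over Zmym2+/+, horizontal axis), with genes called higher in KO EBs in red, lower in blue and symbols for role. The 8 red genes lie in the upper right quadrant and both blue genes lie to the left of 0, Sesn1 only just (-0.02 in embryos).

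Between mESCs and EBs most of the 32 genes changed in both genotypes. In EBs relative to mESCs, KO lines had 12 genes called higher and 10 lower, and NT lines 11 higher and 10 lower, where 23.1% and 22.1% of all genes were called in KO lines and 23.0% and 23.6% in NT lines. Apoptosis genes were mainly higher in EBs (7 called higher in each genotype) and repair genes lower (2 called in KO, 3 in NT, 0 higher in either by edgeR or DESeq2, with no unadjusted p under 0.05 for a higher level). Of the 32, 10 were called higher in both genotypes and 8 lower in both, counts given here without the matching share of all genes.

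Pmaip1 had 104 and 117 CPM in KO EBs against 40.1 and 37.8 CPM in KO mESCs (log2 fold change 1.50, SE 0.09, adjusted p = 4.11e-08), and 96.4 and 92.4 CPM in NT EBs against 40.5 and 35.9 CPM in NT mESCs (1.304, SE 0.09, adjusted p = 1.1e-07). Plk2 was likewise higher in EBs in KO (1.50, SE 0.15) and NT lines (1.26, SE 0.15). Gdf15 had the most negative change in both genotypes, with 2.26 and 2.66 CPM in KO EBs against 9.54 and 14.0 CPM in KO mESCs (-2.27, SE 0.23, adjusted p = 5.83e-06), and 1.88 and 1.26 CPM in NT EBs against 6.93 and 6.28 CPM in NT mESCs (-2.08, SE 0.25, adjusted p = 1.87e-05). EB and mESC libraries did not overlap for any of these genes in either genotype.

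Rrm2b, a ribonucleotide reductase subunit that supplies nucleotides for repair, had 2.94 and 2.83 CPM in KO EBs against 5.85 and 4.13 CPM in KO mESCs (log2 fold change -0.79, SE 0.25, adjusted p = 0.0198). In NT lines it had 2.27 and 2.47 CPM in EBs against 6.03 and 9.46 CPM in mESCs (-1.70, SE 0.25, adjusted p = 0.000112). Mdm4 was lower in EBs, with a log2 change of -0.59 (SE 0.11) in KO and -1.04 (SE 0.11) in NT lines, and Ppm1d was higher, with 0.42 (SE 0.09) in KO and 0.24 (SE 0.09) in NT lines. Mdm2 was called in neither genotype (0.22, SE 0.10 in KO and 0.08, SE 0.10 in NT). Leaving out 1 library ended 4 of the 22 calls in KO lines, with the highest adjusted p for Rrm2b (0.166) and Trp53 (0.107) without KO mESC 1, Fdxr (0.152) without KO mESC 2 and Sesn1 (0.0886) without KO EB 1. In NT lines it ended 3 of 21, Fdxr (0.26), Ppm1d (0.216) and Tnfrsf10b (0.0759), each without NT mESC 2.

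The genes not yet described moved mainly with stage. Btg2, an antiproliferative gene, was higher in EBs in KO (0.62) and NT lines (0.78), as was Tnfrsf10b, the mouse TRAIL receptor gene (0.77 in KO, 0.40 in NT), while Ei24, which acts in autophagy at the endoplasmic reticulum, was lower in both (-0.43 in KO, -0.73 in NT). Ddb2, which recognises ultraviolet damage, was called lower in EBs in NT lines (-0.79), and Polk, a translesion polymerase gene, in neither. Zmat3, which encodes an RNA-binding zinc finger protein, was called in no comparison, with 66.7 and 63.7 CPM in KO EBs against 56.6 and 58.0 CPM in NT EBs.

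The test of whether this change differed between genotypes called 3 of the 32 genes, all 3 with a larger value in KO lines, where 3.07% of all genes were called in that direction and 2.18% in the other. In the other direction this edgeR fit called 0 of the 32, and 2 (Bax, Sesn2) had an unadjusted p under 0.05. Bax was called lower by DESeq2 (-0.28, adjusted p = 0.037) and with edgeR's filterByExpr (-0.29, adjusted p = 0.0484), and Sesn2 without NT mESC 1 (-0.64, adjusted p = 0.025). For Phlda3 the log2 change was 1.60 (SE 0.11) in KO and 0.52 (SE 0.11) in NT lines, a difference of 1.08 (SE 0.15, adjusted p = 0.0018). Perp changed in opposite directions, with 29.3 and 26.6 CPM in KO EBs against 21.03 and 19.5 CPM in KO mESCs, and 24.5 and 25.5 CPM in NT EBs against 31.7 and 38.3 CPM in NT mESCs. Its log2 change was 0.46 (SE 0.11) in KO and -0.48 (SE 0.11) in NT lines, a difference of 0.95 (SE 0.16, adjusted p = 0.00497).

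Apaf1 had 51.9 and 49.4 CPM in KO EBs against 24.6 and 25.7 CPM in KO mESCs, and 49.8 and 44.7 CPM in NT EBs against 33.5 and 31.7 CPM in NT mESCs. The difference between genotypes was 0.48 (SE 0.13, adjusted p = 0.0485), and its call was lost without any of 7 libraries, with adjusted p from 0.0698 (without NT EB 1) to 0.203 (without NT EB 2), and held only without KO mESC 2. It was also lost with filterByExpr (0.0574) and with RLE scaling (0.0526). For all 3 genes the difference combines a lower level in KO mESCs with a level in KO EBs that was higher (Phlda3) or not called different (Perp, Apaf1). At an unadjusted p under 0.05 there were 11 of the 32 with a larger value in KO lines, 6 of them in the apoptosis group, and 2 with a smaller one, where 10.8% and 8.95% of all genes passed. The markers of primed epiblast had an interaction of the opposite sign (4 of 4 called, median -2.27). Those of pluripotent cells mainly had the same sign (4 of 6 called higher, 0 lower, median 0.97). The part of either marker set in these differences was not tested.

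**Figure D5:**
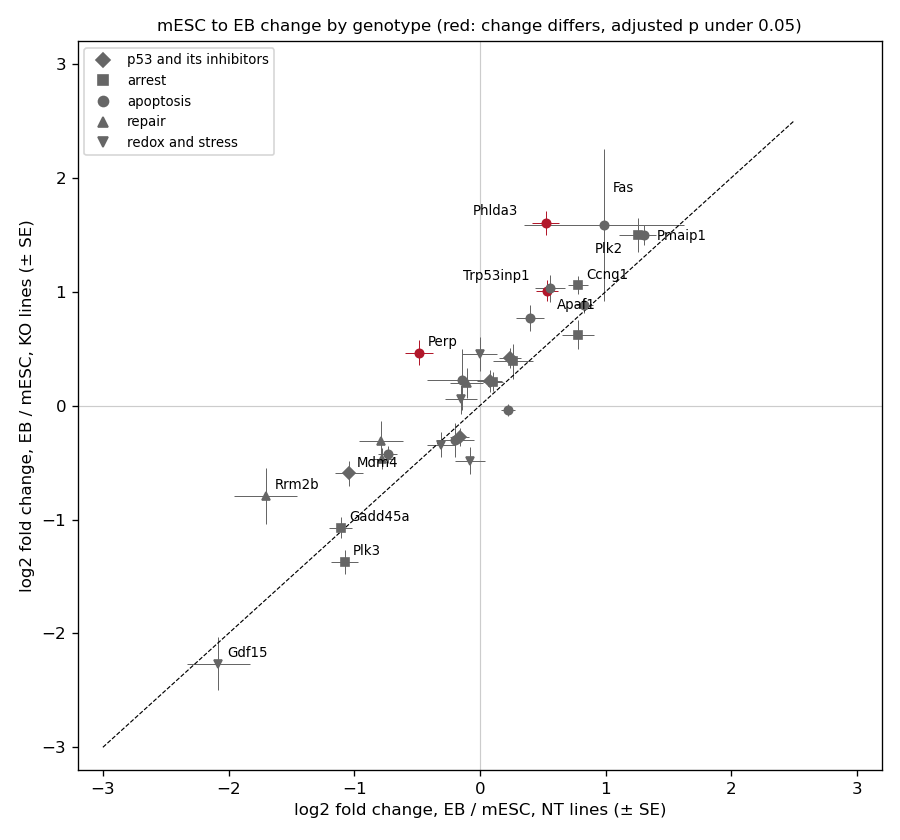
Log2 fold change ± SE from EB over mESC in KO lines (vertical axis) against NT lines (horizontal axis) for the 32 genes, with symbols for role, a dashed line of equality and red for the 3 genes whose change differed between genotypes. Phlda3 (1.60 in KO, 0.52 in NT), Apaf1 (1.01 and 0.53) and Perp (0.46 and -0.48) lie above the line, and Gdf15, Plk3 and Gadd45a fell in both.

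Wider lists of the pathway were read beside the 32. For all of these lists, edgeR called 4.62% of all genes higher and 2.77% lower in KO EBs. In KO mESCs the shares were 10.3% and 8.94%, and in embryos 0.510% and 0.0132%. At an unadjusted edgeR p under 0.05 they were 11.7% and 8.94% in KO EBs and 5.67% and 6.38% in embryos. Of 25 other p53 targets, 2 were called higher and 0 lower in KO EBs by edgeR and by DESeq2, with 10 and 3 at an unadjusted edgeR p under 0.05 and a median log2 fold change of 0.11. The called genes were Ptp4a3, a phosphatase gene, with 60.2 ± 4.46 CPM in KO and 34.1 ± 2.34 CPM in NT EBs (SD, n = 2 each; log2 fold change 0.82, SE 0.08, adjusted p = 7.89e-05) and Ak1, which encodes adenylate kinase, with means of 39.8 CPM in KO and 28.6 CPM in NT EBs (0.48, SE 0.08, adjusted p = 0.00408). In mESCs the same list had 1 higher and 4 lower, led by Sfn (14-3-3 sigma, -1.06, SE 0.16) and Abhd4 (-0.66, SE 0.11). In embryos edgeR and DESeq2 called 0 of the 25, with 1 higher and 2 lower at an unadjusted edgeR p under 0.05.

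Genes that p21 and the DREAM complex repress when p53 is active, mostly mitotic genes such as Ccnb1, were followed as a downstream readout. None of the 15 was called in KO EBs by edgeR or DESeq2, and at an unadjusted edgeR p under 0.05 there were 7 higher and 1 lower, with a median log2 fold change of 0.08. Ccnb1 averaged 386 ± 8.83 CPM in KO and 344 ± 8.82 CPM in NT EBs (0.17, SE 0.05, adjusted p = 0.052). The higher Cdkn1a level in KO EBs was thus not accompanied by called lower levels of these genes. In mESCs 1 of the 15, Ccnb2, was called lower (-0.24, SE 0.08, adjusted p = 0.0486), and in embryos edgeR and DESeq2 called 0, with 1 higher and 1 lower at an unadjusted edgeR p under 0.05.

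Of 24 upstream regulators and cofactors of p53, 23 could be tested. In KO mESCs 5 were higher and 2 lower, where 10.3% and 8.94% of all genes were. Among the higher ones was Cdkn2a, the locus of the MDM2 inhibitor ARF, with 7.32 ± 1.93 CPM in KO and 3.63 ± 0.0497 CPM in NT (log2 fold change 1.01, SE 0.23, adjusted p = 0.00692). Another was the p53 family gene Trp73 with 7.63 ± 2.23 CPM in KO and 3.50 ± 1.04 CPM in NT (1.12, SE 0.26, adjusted p = 0.00848). The checkpoint kinase gene Atr was higher in KO mESCs (0.48, SE 0.11, adjusted p = 0.00868) and KO EBs (0.39, SE 0.09, adjusted p = 0.0158). In KO EBs the other calls were Pml (-0.27, SE 0.06) and Trp53bp2 (-0.35, SE 0.08), both lower, and in embryos edgeR and DESeq2 called 0, with 0 higher and 2 lower at an unadjusted edgeR p under 0.05.

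Since Sesn2 and Gdf15 are also activated by ATF4, the effector of the integrated stress response, 14 ATF4 targets were read too. In KO EBs 4 were called lower and 0 higher by edgeR (5 and 0 by DESeq2), with 6 and 1 at an unadjusted edgeR p under 0.05. Chac1, a glutathione-degrading enzyme, had 10.6 ± 0.0186 CPM in KO and 18.8 ± 2.06 CPM in NT EBs (log2 fold change -0.82, SE 0.11, adjusted p = 0.000892). In KO mESCs 3 were higher and 2 lower, where 10.3% and 8.94% of all genes were. Chac1 was among the higher (0.55, SE 0.10, adjusted p = 0.00184) and asparagine synthetase Asns among the lower (-0.45, SE 0.10, adjusted p = 0.0077). In embryos edgeR and DESeq2 called 0, with 0 higher and 1 lower at an unadjusted edgeR p under 0.05.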

How the data were processed

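The authors trimmed paired-end reads of a stranded poly(A) mRNA kit with Trimmomatic (version 0.34), aligned them to mm10 with STAR (2.7.8a), marked duplicates with Picard (2.9.0) and deposited raw HTSeq-count counts per gene in 3 tables (embryos, mESCs, EBs). The HTSeq version, annotation and strand setting are not given in the sources used here. Deposited RPKM values (StringTie 1.3.5, by the authors) served for levels per length, and the deposited normalized values, a score equal to counts times a size factor, only as a check. The authors' fold changes and p-values were not used.

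Counts were tested in R 4.3.3 with edgeR 4.0.16 (TMM, quasi-likelihood test, two-sided, Benjamini-Hochberg adjustment over all genes, called at an adjusted p under 0.05; genes with at least 10 counts over the libraries), on the counts as deposited. Embryos were compared within their table, KO with NT lines within each stage's table, and stages and their interaction with genotype over all 8 line libraries and 18926 shared genes, which also gave the CPM printed for lines. DESeq2 1.42.0, RLE scaling, filterByExpr, sex, litter and name covariates, and leaving out each library were alternatives. Correlations used log2(CPM + 0.5). Totals of 32016880 to 64057608 counts per library limit the precision of genes such as Fas. The code was tested on simulated data.

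All 32 genes are named, with those called or of smallest p in their role described in full, and at most 4 genes per comparison from each wider list. The genes, lists and tests were chosen with earlier results of these data known. Deviations of same-numbered samples correlated at -0.468 to 0.405 in embryos, and no source says that a number marks a shared litter, clone or day, so they were not used to pair samples.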

Additional observations from a re-analysis of the deposited data

Results flagged for a closer look

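Among 64 groups of 6 embryos (32 genes in 2 genotypes), 7 held an embryo whose distance to its nearest neighbour was large beside the range of its group (Dixon's criterion at 95%, which chance meets in about 1 in 20 groups). Zmym2-/- embryo 4 was high for Plk3 (22.3 CPM, the other knockouts 2.42 to 8.99) and for Fdxr (39.9 CPM, the others 10.1 to 17.9), and it also had the highest trophoblast marker sum of its genotype (754 CPM, the others 153 to 358). Zmym2-/- embryo 5 was low for Aen (65.0 CPM, the others 75.6 to 79.0), embryo 1 high for Apaf1 (46.5 CPM, the others 30.9 to 36.5) and embryo 6 high for Gdf15 (1.22 CPM, the others 0.334 to 0.619). Among wild types, embryo 5 was high for Gtse1 (73.7 CPM, the others 35.5 to 47.9) and embryo 4 for Sesn1 (18.6 CPM, the others 14.3 to 15.4).

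The change from mESCs to EBs differed between KO and NT lines by the interaction test for Phlda3 (1.08 on the log2 scale), Perp (0.95) and Apaf1 (0.48). Phlda3 and Perp kept the call with any of the 8 libraries left out. In the 2 groups of mESCs the primed epiblast markers also differed (646 to 893 summed CPM in KO, 195 to 271 in NT), and their part was not tested.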

How the results depend on the processing

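No called value of the 32 genes turned round under any alternative. In embryos the number called (1) was 3 with DESeq2, 2 with males only, with the name series as a covariate and without Zmym2-/- embryos 5 and 6, and 0 with females only, H names only, J names only and the litter block on shared litters. Of all genes, the main fit called 0.524%, and those with more calls, in the same order, 1.64%, 1.77%, 0.506% and 0.341%. The subsets without a call had 0.0698%, 0.00485%, 0.214% and 0.00461% of all genes called. These subsets hold fewer embryos, and Trp53inp1 had log2 fold changes of 1.15 (females, adjusted p = 0.146), 1.09 (H, 0.529), 1.06 (J, 0.103) and 1.07 (litter block, 0.188) in them. Leaving out 1 embryo gave 0 to 2 calls for sex by genotype (0 with all), where 0 to 7.28% of all genes were called. Line fits with 1 library left out have a lone library in a group, and the share of all genes called moved in them as well. Fitting EBs with mESCs gave 6 EB calls (5.05% of all genes). DESeq2, added after seeing the data, gave 5 for sex by genotype (11.4% of all genes). The median stage change in NT lines (-0.04) was 0.17 without NT mESC 1, and the median interaction (0.22) was 0.09 without it.

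The sample number is only a shared number. With it as a replicate block, members called were 1 in embryos, 13 in mESCs and 12 in EBs. Of all genes, these fits called 0.216%, 19.5% and 10.3%, against 0.524%, 19.2% and 7.39% without the block. With each line as a replicate block, the interaction gave 8 calls, 6 higher and 2 lower (Bax, Sesn2), where 1299 of all genes were called higher and 1026 lower (12.3%), against 581 and 412 without the block. Same-numbered deviations correlated at -0.0451 between KO and NT mESCs, -0.0437 between KO and NT EBs, 0.424 between KO EBs and KO mESCs and 0.16 between NT EBs and NT mESCs.

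Each line group has 2 libraries, and with 1 left out the lone library is assumed to vary like the others. Depth limits Fas and, in embryos, Gdf15. The tables already held genes with 10 or more counts, so dropping the filter altered nothing.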

Other observations

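In EBs relative to mESCs, 10 of 15 p21 and DREAM repressed genes were called lower in KO lines and 11 of 15 in NT lines, with 1 called higher in each. Of all genes, 22.1% were called lower in KO lines and 23.6% in NT lines, with 23.1% and 23.0% higher. Mybl2, a cell cycle transcription factor gene, had log2 changes of -2.13 in KO and -2.34 in NT lines. All 14 ATF4 targets had a negative change in KO lines (11 called) and 11 of 14 in NT lines (9 called), and Chac1 fell further in KO lines (interaction -1.37, adjusted p = 0.000248 by edgeR).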
